A study of Rattus norvegicus with 12 samples.

Results

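Ccl24 and Lbp encode secreted proteins of innate defence and were followed here across the 4 conditions of a rat XEN cell experiment. They are 2 of the 16633 genes measured, and 19 of the 211195 probe sets on the arrays carry their symbols, 3 for Ccl24 and 16 for Lbp. Both genes were chosen from the measured values of these arrays, for a large difference between CHIR and control and for unlike departures from additivity when forskolin was added. Those quantities, and the pairwise differences that share arrays with them, are therefore given below as a description with no test.

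Ccl24, also called eotaxin-2, is a CC chemokine that attracts eosinophils through the receptor Ccr3, and macrophages and epithelia are known to secrete it. Lbp, the lipopolysaccharide-binding protein, is an acute-phase protein of the liver that takes lipopolysaccharide from bacterial membranes and passes it to Cd14, from which it reaches the complex of Tlr4 and Ly96. Chemokine and acute-phase genes are commonly switched on by NF-kappaB, STAT and C/EBP factors.

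XEN cells are a stem cell line with features of extraembryonic endoderm, here from rats of the Fisher strain. Control cultures were left without compound. In the CHIR group, CHIR99021 was present at 3 µM over 2 days. This compound blocks the kinase GSK3, so that beta-catenin accumulates. Forskolin, an activator of adenylate cyclase that raises cAMP, was given at 10 µM over 1 day in the forskolin group. In the combined group CHIR99021 was present at 3 µM over 2 days and forskolin at 10 µM over the last 1 day of these. Cells of all 4 groups spent the final day in medium with little serum. Each group has 3 arrays, 1 per sample. The labels do not say that the 3 parallels were separate cultures, and the p-values thus reflect only how far these arrays scatter, which could be technical scatter. CHIR was given for longer than forskolin, so an effect of the compound and one of its duration cannot be told apart where the compounds are set side by side.

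Values are log2 signals, and the value of a gene is the median of its probe sets. The median signal of an array was 7.76 to 7.86. As a reference for background, the 95th percentile of 1097 olfactory receptor genes was 6.46, and a gene with a group mean below it is called near background. A known target of each compound was checked. Axin2, a feedback gene of the Wnt pathway, rose with CHIR by 2.89 (limma adjusted p = 2.78e-09), and Crem, whose product is a transcription factor induced by cAMP, rose with forskolin by 1.45 (limma adjusted p = 1.25e-06). The rise of Crem did not pass when its brightest probe set was used (0.21, limma adjusted p = 0.319). All 12 markers of XEN cells and endoderm exceeded the background reference in 1 group or more. With CHIR 8 of them fell and 2 rose, beside 28.1% of all genes called in that comparison (14.3% higher and 13.9% lower). Of 14 macrophage and leukocyte markers 1 lay above it in any group (Cd68), as did 1 of 9 granulocyte and eosinophil markers (Prg2) and 1 of 10 hepatocyte markers (Ttr). In the CHIR group Cd68 was at 7.47 against 7.53 in control, and Prg2 and Ttr were near background at 5.52 and 6.25. Of the 33 markers of these 3 lists, CHIR raised Mpo (0.30) and lowered Cyp2e1 (-0.42). Forskolin alone, with which Lbp was also higher, raised Prg2 by 0.67 to 6.57, Mpo by 0.36 and Itgam by 0.28, and lowered Cyp2e1 (-0.50). Forskolin added to CHIR raised Prg2 by 0.91 to 6.43 and Csf3r by 0.45. Apart from Prg2 with forskolin alone, these called markers stayed near background. The part of the markers in the results was not tested.

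Replicate 1 of the combined group stood apart from its mates in more genes than any other array. It lay over 0.5 log2 units above both mates in 143 genes and below both in 113, together 1.54% of genes, against 0.331% to 1.09% for the other arrays. Lbp was among the most affected genes, with the fifth highest of 16633 deviations, 1.25 above the mean of replicates 2 and 3. Ccl24 deviated the other way in that array, by -0.49. Results for the combined group are therefore given with and without it.

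Ccl24 lies on chromosome 12 and Lbp on chromosome 3 of the rat genome. The sequence around the annotated start is shown for Ccl24 alone, because no promoter window was available for Lbp, which was therefore not searched. Ccl24 had the largest difference between CHIR and control, and CHIR acts through beta-catenin and its TCF/LEF partners. The window holds 250 bases before the annotated start and 50 after it, from RefSeq on the build GRCr8, plus strand, at chr12:26737173-26737472. Capitals mark the letters CTTTGAA, a form of the TCF/LEF motif.

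Ccl24 promoter: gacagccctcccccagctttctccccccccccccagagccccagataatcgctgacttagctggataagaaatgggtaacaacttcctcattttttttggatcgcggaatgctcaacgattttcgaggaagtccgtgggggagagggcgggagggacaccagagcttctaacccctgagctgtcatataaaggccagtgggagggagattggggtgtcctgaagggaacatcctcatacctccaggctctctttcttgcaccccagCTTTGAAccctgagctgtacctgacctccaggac

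The motif was searched on both strands as CTTTGAA and as CTTTGAT and as CTTTGTA and as CTTTGTT. Its only match in this window lies at bases 17 to 23 counted from the annotated start, within the transcribed part. Of 33469 promoter windows of the same length, 17.1% hold a match. The STAT motif TTCNNNGAA has 1 match, at bases -129 to -121, as do 8.87% of windows. The pattern, with any base at N, is the same on both strands, so this site matches on either. It does not overlap the TCF/LEF match. No match was found for the cAMP response element core TGACG (in 21.2% of windows), the C/EBP motif TTNNGNAA (41.3%), the STAT6 form with 4 spacer bases in place of 3 (7.28%) or the NF-kappaB motif (7.51%). The full cAMP response element TGACGTCA, which contains this core, is held by 1.83% of windows and not by this one.

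Ccl24 was near background without CHIR and bright with it. In control its log2 signals were 5.62, 5.70 and 5.89 on the 3 arrays. With CHIR they were 10.43, 10.42 and 10.30. All CHIR arrays lay far above all control arrays, and the group means were 5.74 ± 0.14 (SD, n = 3) and 10.38 ± 0.07 (SD, n = 3). This difference of 4.65 (SE 0.123), or 25.0-fold, was the highest of all 16633 genes. Signals near background are compressed, so the ratio may understate the change. In these bulk samples, more cells with the transcript and more transcript per cell cannot be told apart.

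Forskolin alone left Ccl24 near background, with log2 signals of 5.95, 5.80 and 5.93. These overlapped the control values, and the difference was 0.15 (SE 0.123). Given together with CHIR, forskolin went with a lower Ccl24 signal than CHIR alone. The combined arrays had log2 signals of 9.04, 9.47 and 9.58, all below the 3 CHIR arrays and all above the arrays without CHIR. Their mean of 9.36 ± 0.29 (SD, n = 3) differed from CHIR alone by -1.02 (SE 0.123), which leaves 0.494 of the signal on the linear scale. Without replicate 1 of the combined group the difference was -0.86. Set against forskolin alone, the combined group was higher by 3.47 (SE 0.123), or 11.1-fold. The order of Ccl24 levels was CHIR, combined, then forskolin and control, and the last neighbours overlap.

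Lbp, unlike Ccl24, was already above the background reference in control and was higher with each compound alone. Its log2 signals in control were 7.52, 7.71 and 7.51. With CHIR they were 10.79, 10.91 and 11.29. With forskolin alone they were 10.07, 10.16 and 10.04. The arrays of each single compound lay above every control array, and the CHIR arrays lay above the forskolin arrays. Against the control mean of 7.58 ± 0.11 (SD, n = 3), CHIR was higher by 3.41 (SE 0.253), or 10.7-fold, the sixth highest of 16633 differences. Forskolin was higher by 2.51 (SE 0.253), or 5.69-fold, which ranked 11 in that comparison.

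In the combined group Lbp varied more between arrays, and how close its mean lay to CHIR alone depended on replicate 1. The signals were 11.56, 10.35 and 10.27, so that replicate 1 lay above all CHIR arrays and replicates 2 and 3 lay below them. All 3 were above the forskolin arrays. The mean of 10.73 ± 0.72 (SD, n = 3) differed from CHIR alone by -0.27 (SE 0.253) and from forskolin alone by 0.63 (SE 0.253). Without replicate 1 the combined mean was 10.31, which differed from CHIR by -0.69 and from forskolin by 0.22. The order of Lbp levels was CHIR, combined, forskolin and control. CHIR and combined overlap, and the step from combined to forskolin shrank without replicate 1 of the combined group, from 0.63 to 0.22.

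**Figure D1:**
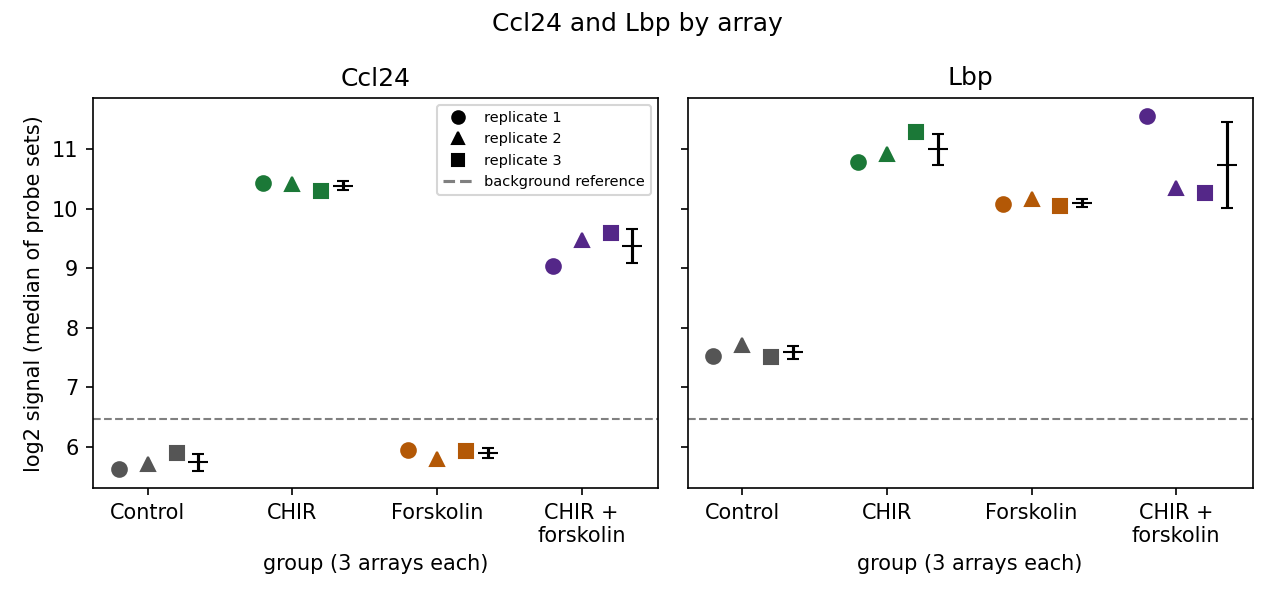
Log2 signals of Ccl24 (left) and Lbp (right) on the 12 arrays by group. Symbols mark replicate numbers, the black bar beside each group is the mean ± SD of 3 arrays, and the dashed line is the background reference of 6.46. Ccl24 lies below that line in control and forskolin and at 9.04 to 10.43 with CHIR present, while Lbp lies at 10.04 or above in all 3 treated groups.

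For both genes the combined group fell short of the sum of the single compounds on the log2 scale. For Ccl24 the differences of the single compounds from control sum to 4.80, and the combined group was higher than control by 3.63, giving an interaction of -1.17 (SE 0.174). For Lbp the single differences sum to 5.92 and the combined group was higher by 3.14, giving an interaction of -2.78 (SE 0.357), the fourth lowest of all genes. Ccl24 ranked 102 from the lowest end. In the interaction 6.31% of all genes were called, 3.25% higher and 3.07% lower, and nothing is read from this for genes that it chose. Without replicate 1 of the combined group the interactions were -1.01 for Ccl24 and -3.20 for Lbp. The same sign covers different patterns. For Ccl24 the difference made by forskolin was -1.02 with CHIR and 0.15 without it. Without CHIR its signal was near background (5.74 in control and 5.89 with forskolin), where a fall could hardly show. The interaction of Ccl24 thus cannot tell whether the difference made by forskolin depends on CHIR. For Lbp the difference made by forskolin was -0.27 with CHIR and 2.51 without it. Leaving out replicate 1 of the combined group, the differences with CHIR were closer, -0.86 for Ccl24 and -0.69 for Lbp.

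The average of forskolin's differences with and without CHIR was tested over all genes. With groups of equal size, it is independent of both quantities that chose the genes only if the groups also have equal spread. Group SDs ran from 0.07 to 0.29 for Ccl24 and from 0.06 to 0.72 for Lbp. The p-values below may therefore not be free of that choice. For Ccl24 this average was -0.43 (SE 0.0869, 95% confidence interval -0.62 to -0.25, limma adjusted p = 0.00239). All 3 combined arrays lay below the CHIR arrays. The arrays without CHIR overlapped near background, where a fall could hardly show. The call was lost with the brightest probe set of Ccl24 (-0.22, limma adjusted p = 0.130). For Lbp the average was 1.12 (SE 0.179, 95% confidence interval 0.73 to 1.50, limma adjusted p = 0.000399), made of a higher level in 3 of 3 arrays without CHIR and no clear order with CHIR. In this comparison 21.0% of all genes were called, 8.92% higher and 12.0% lower (1483 against 2004 genes, and 2115 against 1440 with arrays centred on their medians). An exact two-sided permutation test that exchanges forskolin labels within the arrays with CHIR and within those without it gave p = 0.095 for Ccl24 and p = 0.075 for Lbp, where 0.005 is the smallest p it can give, so neither average passed it. Over the gene-level alternatives, this permutation test among them, p ranged from 0.000276 to 0.130 for Ccl24 and from 8.18e-06 to 0.075 for Lbp. The upper end for Lbp is the permutation p, which is not adjusted over genes as the limma values are.

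The 3 probe sets of Ccl24 gave the same order of groups for arrays with CHIR. Their differences between CHIR and control were 3.45, 5.73 and 4.65, and those between combined and CHIR were -0.87, -0.82 and -1.02. Forskolin alone differed from control by -0.20, 0.38 and 0.19, with no common sign. The second probe set moved from 5.41 ± 0.20 (SD, n = 3) in control to 11.13 ± 0.07 (SD, n = 3) with CHIR, the widest span of the 3.

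Of the 16 probe sets of Lbp, 15 were higher with CHIR by at least 1 log2 unit, and these 15 were also higher with forskolin by at least 1. The exception, numbered 16, lay near 6.35 in control, 6.30 with CHIR and 6.72 with forskolin, close to background, with differences of -0.05 and 0.37. Number 1 had the next lowest differences, 1.48 with CHIR and 1.05 with forskolin. The median differences over the 16 probe sets were 3.40 with CHIR and 2.62 with forskolin. Replicate 1 of the combined group was above the mean of its mates in all 16 probe sets and by at least 1 in 13 of them, so its high Lbp value does not rest on a few probe sets. For the average forskolin effect, 2 of 3 Ccl24 probe sets and 12 of 16 Lbp probe sets passed when the fit was run on single probe sets.

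**Figure D2:**
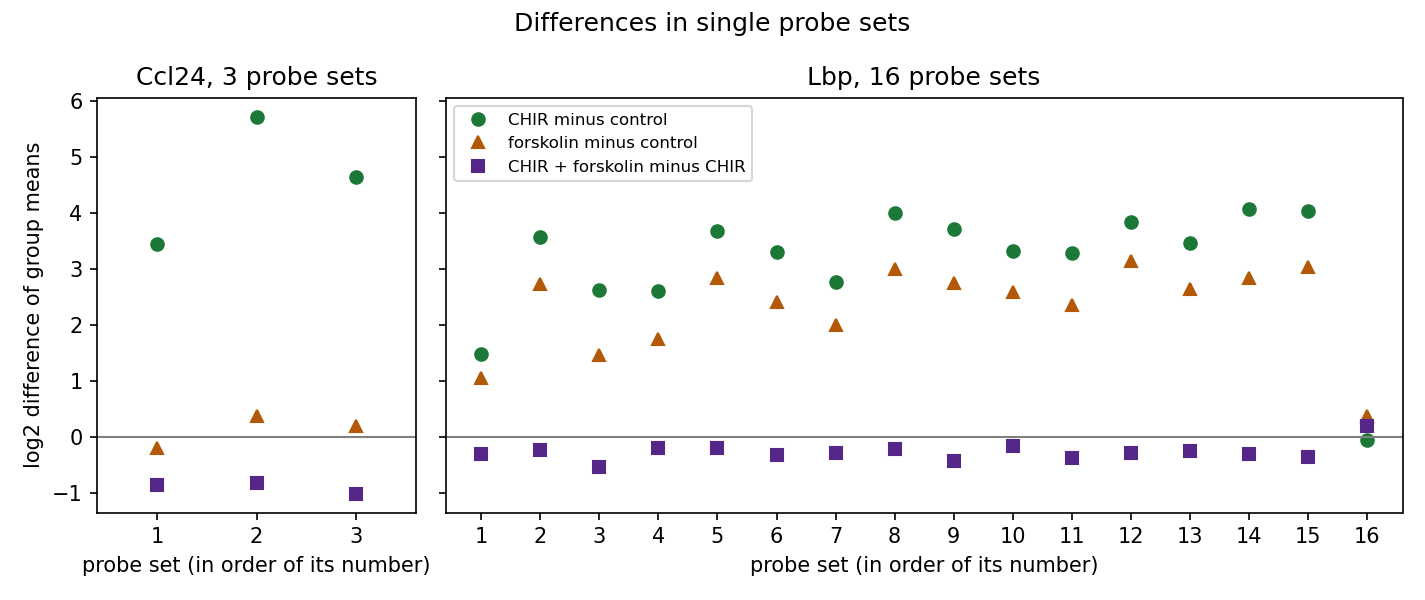
Log2 differences of group means in each probe set of Ccl24 (left) and Lbp (right), in order of probe set number. Circles are CHIR minus control, triangles forskolin minus control and squares CHIR plus forskolin minus CHIR. Circles and triangles are separated by 3 units or more for Ccl24 and both lie at 1 or above for 15 of 16 Lbp probe sets, while probe set 16 of Lbp lies at -0.05 and 0.37.

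Lgr5, the R-spondin receptor of Wnt-responsive stem cells, had the profile most like Ccl24 over the 12 arrays, with a Pearson r of 0.995 among 1667 other genes whose group means span at least 1 log2 unit. Lgr5 was higher with CHIR by 3.92 and differed by -0.97 when forskolin was added to CHIR. Next came Ppp2r3a (r = 0.993), a regulatory subunit of protein phosphatase 2A, the kinase gene Camk1d (0.991), Socs1 (0.991), an inhibitor of cytokine receptor signalling, Lhfpl4 (0.990) and Sh3bgrl2 (0.989). Their differences between CHIR and control ran from 1.24 to 2.58. The arrays fall into separate groups, so these values of r describe group means more than variation between replicates.

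The genes most like Lbp had lower correlations and smaller differences. They were Ltbp1 (r = 0.960), which encodes a binding protein of latent TGF-beta, Fam107a (0.947), Dop1b (0.945), the transcription factor gene Klf4 (0.938), the water channel gene Aqp8 (0.937) and Rnf208 (0.924). Ltbp1 was higher by 1.19 with CHIR and by 0.96 with forskolin. Over the 6 genes the differences ran from 1.05 to 1.39 with CHIR and from 0.54 to 0.96 with forskolin, against 3.41 and 2.51 for Lbp.

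**Figure D3:**
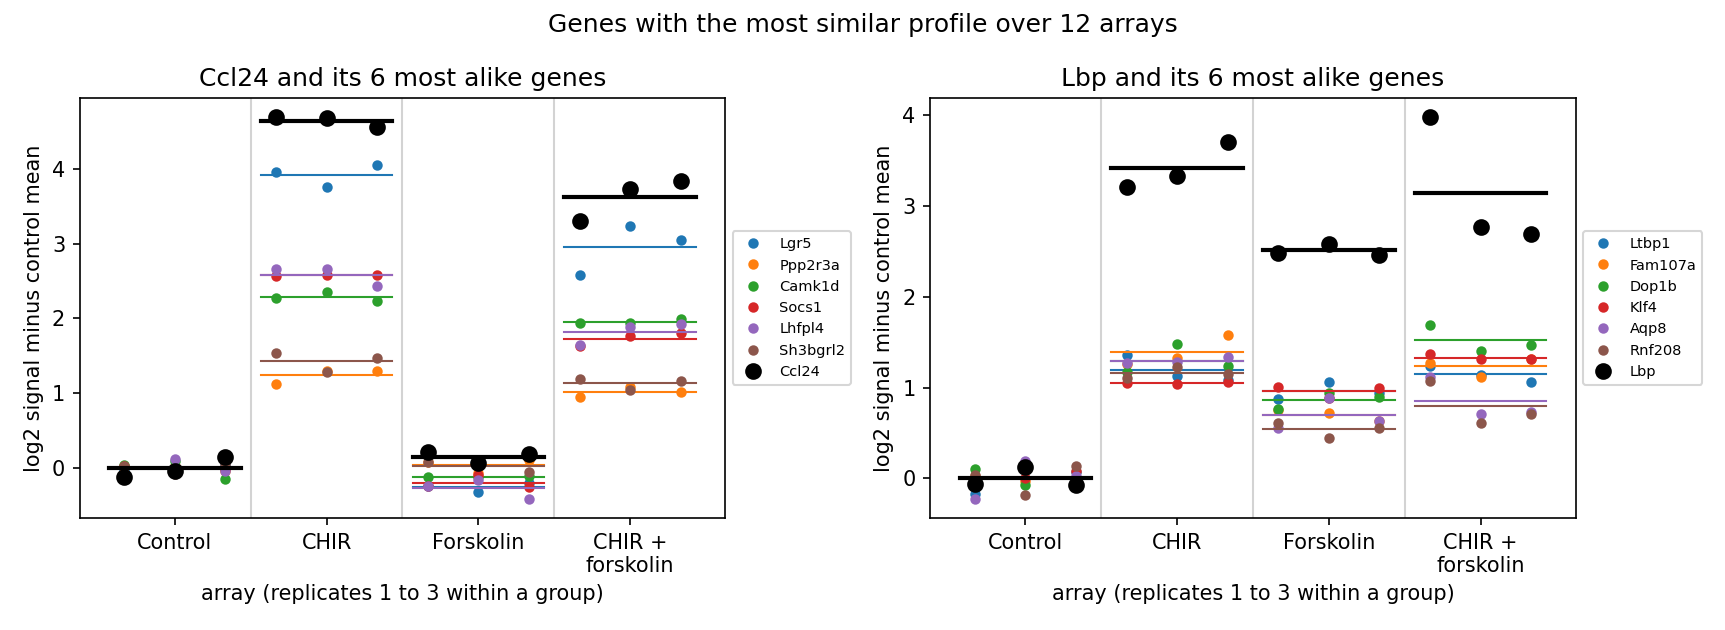
Log2 signal minus the control mean on the 12 arrays for Ccl24 (left) and Lbp (right), in black, with the 6 genes of highest Pearson r in colour. Points are arrays and horizontal lines are group means. Lgr5 follows Ccl24 closest in size (3.92 against 4.65 with CHIR), and the genes most like Lbp reach at most 1.39 with CHIR against 3.41.

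Genes around both factors were compared through 8 lists with 134 measured members of 153, and most were near background. Above the reference in at least 1 group were 42 of the 134, against 62.1% of all genes. With CHIR 12 rose and 16 fell, 20.9% of the members, against 28.1% of all genes (2373 higher and 2304 lower, and 2794 against 1977 with arrays centred). With forskolin 6 rose and 7 fell, 9.70% of the members, against 15.0% of all genes called (6.07% higher and 8.92% lower, or 1009 against 1483 genes, and 1338 against 1041 with arrays centred). Adding forskolin to CHIR raised 6 and lowered 5, 8.21% of the members, against 13.8% of all genes called (6.51% higher and 7.33% lower, or 1082 against 1219 genes, and 1386 against 977 with arrays centred). The median difference of the 134 was -0.009 with CHIR and 0.007 with forskolin, beside 0.013 and -0.004 for all genes. The share called differed between lists, with CHIR from 9.09% of the chemokine receptors to 31.2% of the genes of lipopolysaccharide and Toll-like receptor signalling, and with forskolin from 0% of the latter and of the CC ligands to 27.3% of the receptors. These shares were not tested against that of all genes.

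The other CC chemokines were mostly near background. Of the 19 other CC ligands measured, 4 lay above the background reference, and with CHIR 1 rose, Ccl20 (0.28, limma adjusted p = 0.0327), and 1 fell, Ccl27 (-0.35, limma adjusted p = 0.0205). The call of Ccl20 was lost without control replicate 2 or 3 or CHIR replicate 2 or 3 (0.19 to 0.30). It was also lost with the mean of its probe sets (0.072) and with the brightest (0.11). That of Ccl27 was lost without control replicate 1 or 3 or CHIR replicate 2 or 3 (-0.35 to -0.27). Centring the arrays ended it too (-0.30, limma adjusted p = 0.0569). With forskolin alone and with forskolin added to CHIR, limma called 0 of the 19, beside 15.0% and 13.8% of all genes. Of the 19, 0 had an unadjusted p under 0.05 in either comparison. Ccl11 and Ccl26, the other eotaxins, were near background and did not pass with CHIR (-0.10 and 0.17). Ccr3, the receptor of all 3, was at 5.40 in control and 5.28 with CHIR, also near background (-0.12, limma adjusted p = 0.366). Of 16 ligands of other chemokine classes, Cxcl11 rose (1.13) and Cxcl16 (-2.18) and Cxcl12 (-0.32) fell, and the call of Cxcl12 was lost without control replicate 1 or 3, forskolin replicate 1 or 2, or any CHIR array (-0.34 to -0.26). Cxcl11, an interferon-induced ligand, did not pass with its brightest probe set (0.21, limma adjusted p = 0.373). Ackr3, a scavenging receptor of Cxcl11 and Cxcl12, rose by 0.87 with CHIR, by 2.19 with forskolin and by 1.45 when forskolin was added to CHIR.

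In the eosinophil and type 2 cytokine list, 2 of 14 rose and 2 fell with CHIR, 28.6% beside 28.1% of all genes. Socs1 rose from 7.26 ± 0.03 to 9.83 ± 0.01 (SD, n = 3 each), by 2.58 (SE 0.0746, limma adjusted p = 2.28e-11), and fell by 0.85 when forskolin was added. Its value rests on 1 probe set, so the median, the mean and the brightest are the same for it. The alarmin gene Il33 rose by 0.41 but stayed near background, and this call was lost without control replicate 2 or 3 or CHIR replicate 2 or 3 (0.34 to 0.41). Il13ra1, a receptor chain for interleukin 13, fell by 0.73, and Stat6, the transcription factor downstream of that receptor, fell by 0.63 with CHIR and by 0.45 with forskolin. The last of these calls was lost with arrays centred on their medians (-0.39, limma adjusted p = 0.0552), with the brightest probe set (-0.16, limma adjusted p = 0.371) and without control replicate 1 or 3 or forskolin replicate 3 (-0.48 to -0.35).

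Cd14, which takes lipopolysaccharide from Lbp, and Tlr4 and Ly96, which it then reaches, were not called with either compound alone. Cd14 (6.01 in control and 6.08 with CHIR) and Tlr4 (5.42 and 5.38) were near background and did not pass in CHIR or forskolin, although Cd14 passed under CHIR with the mean of its probe sets (0.33, limma adjusted p = 0.0478) and with the brightest (0.69, limma adjusted p = 0.000324). Ly96, the Tlr4 cofactor, was at 8.23 in both control and CHIR (limma adjusted p = 0.998). It was higher in the combined group than in control (0.28, limma adjusted p = 0.0311). Its average forskolin effect was also called (0.21, limma adjusted p = 0.0283). Forskolin added to CHIR did not pass for Ly96 (0.28, limma adjusted p = 0.0567). It passed under some alternatives, such as the mean of probe sets (0.28, limma adjusted p = 0.0191). Of the 16 measured genes of this list 2 rose with CHIR, the adaptor genes Tirap (0.57) and Ticam2 (0.40), and 3 fell, 31.2% beside 28.1% of all genes. The call of Ticam2 was lost without control replicate 3 or CHIR replicate 1 (0.32 for either). Tlr3, the receptor for double-stranded RNA, fell most (-1.95, SE 0.218, limma adjusted p = 9.64e-06).

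Within the family of lipid-binding proteins to which Lbp belongs, Pltp was the other bright gene. Pltp encodes the phospholipid transfer protein of plasma. Its log2 signals were 10.89, 10.76 and 10.75 in control and 12.16, 12.11 and 12.23 with CHIR, with no overlap, a rise of 1.37 (SE 0.0821, limma adjusted p = 1.8e-08). With forskolin it did not pass (-0.02, limma adjusted p = 0.936), and neither did forskolin added to CHIR (-0.009, limma adjusted p = 0.969). Bpi, the closest relative of Lbp, was near background in all groups (5.91 in control and 5.81 with CHIR, limma adjusted p = 0.436). Of the 10 measured relatives 1 other was called with CHIR, Bpifb6 (-0.84), whose direction turned with its brightest probe set. With Pltp this is 20% of the 10, beside 28.1% of all genes.

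Other acute-phase proteins were mostly near background, with 3 of 24 above the reference. Under CHIR 16.7% of the 24 were called, beside 28.1% of all genes. With CHIR 3 fell, namely Serping1 (-1.44), which encodes the C1 inhibitor, Hamp (-1.18), which encodes hepcidin, and the complement gene C3 (-0.95, named after its value was seen). Plg (0.26) rose but stayed near background, its direction turned with the brightest probe set, and the call was lost with the mean of probe sets (0.099) and without control replicate 2 or 3 or CHIR replicate 1 or 3 (0.21 to 0.25). With forskolin 1 rose, C3 (0.53), a call lost with its brightest probe set (0.33, limma adjusted p = 0.415). This is 4.17% of the 24, beside 15.0% of all genes called with forskolin.

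Among the cytokine receptors and transcription factors of the acute-phase response, 3 of 24 rose and 4 fell with CHIR. This is 29.2%, beside 28.1% of all genes. Socs3, a feedback inhibitor of Stat3 signalling, rose from 8.47 ± 0.12 to 10.45 ± 0.10 (SD, n = 3 each), by 1.97 (limma adjusted p = 8.71e-10). Il1rn, the interleukin 1 receptor antagonist gene, rose by 1.17, and so did Lif (1.17, named after its value was seen), which encodes a cytokine that signals through Stat3. The falls included the Lif receptor gene Lifr (-1.41) and Nfkb1 (-1.03), a subunit gene of NF-kappaB. With forskolin Stat3 rose by 0.31, a call lost with its brightest probe set (0.14, limma adjusted p = 0.288), and Nfkb1 fell by 0.49. Added to CHIR, forskolin raised Nfkb1 by 0.57 and lowered Il1rn, which fell by 0.72.

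**Figure D4:**
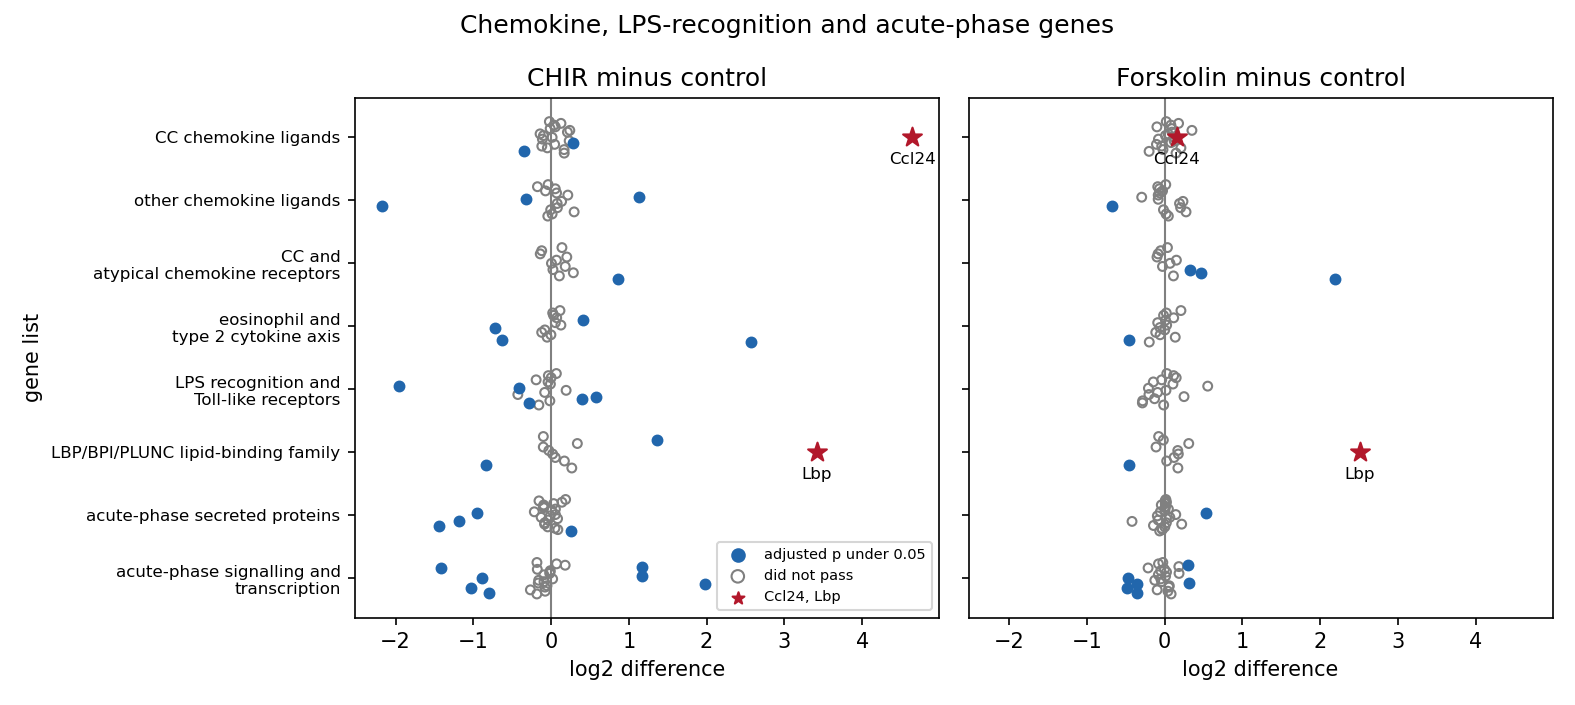
Log2 differences of the 134 listed genes by list, for CHIR minus control (left) and forskolin minus control (right). Filled points passed an adjusted p of 0.05, open points did not, and stars are Ccl24 and Lbp, which were chosen on the left-hand comparison. The stars lie at 4.65 and 3.41 with CHIR, to the right of every other listed gene, and under forskolin Ccl24 lies among the open points at 0.15 while Lbp lies at 2.51.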

How the data were processed

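Total RNA of the 12 samples was labelled with biotin and hybridised to Affymetrix rat gene arrays, per the labels. The deposited values are log2 signals per probe set, already normalised between arrays by the authors, and the submitters' processing notes name RMA and Partek. Their versions and options, and any genome build, are not given here by a label or header, and the log base was read from the range of the values. The platform annotation gave 172924 probe sets 1 symbol. Symbols were updated through the RefSeq gene table of GRCr8, used for names alone (12878 current, 3640 updated, 115 kept). Ccl24 and Lbp were matched by symbol. The median of its probe sets gave a gene its value.

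Group means were fitted to each of 16633 genes (limma 3.58.1, R 4.3.3) over 12 arrays, with moderated two-sided tests and Benjamini-Hochberg adjustment over all genes at 0.05. The procedure was tested on simulated data. Precision is limited by 3 arrays per group. The members and lists were chosen with earlier results of these data known. Named are the 6 genes of highest Pearson r with each member, up to 2 rises and 2 falls per list with CHIR, up to 1 of each for forskolin alone or added to CHIR, and 10 fixed genes. Alternatives covered the gene value, centring, moderation, a filter on dim genes, the replicate number and leaving out each array. RefSeq promoter windows came from GRCr8. Probe sets with several symbols (1661) or none (36610) were not used in gene values.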

Additional observations from a re-analysis of the deposited data

Results flagged for a closer look

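For 8 of the named list genes the difference made by forskolin depended on CHIR, by limma's test of the interaction adjusted over all genes, in which 6.31% of genes were called. Most of these genes were named for their large differences between CHIR and control, and the interaction shares those arrays, so the p-values are not independent of that choice. Nfkb1 had an interaction of 1.05 (adjusted p = 0.000569), with a difference of -0.49 for forskolin alone and of 0.57 for forskolin on top of CHIR. Cxcl16 had 1.01 (adjusted p = 0.00282), from -0.68 without CHIR and 0.33 with it. Hamp had 0.92 (adjusted p = 0.0114), from -0.42 and 0.50, and Socs3 had 0.72 (adjusted p = 0.00257), from -0.35 and 0.37. In the other direction, Ackr3 had -0.74 (adjusted p = 0.000276), from 2.19 and 1.45, Il1rn had -0.73 (adjusted p = 0.00389), from 0.01 and -0.72, Socs1 had -0.65 (adjusted p = 0.00176), from -0.20 and -0.85, and C3 had -0.67 (adjusted p = 0.0137), from 0.53 and -0.14. Socs1 was also named for its likeness to Ccl24 over these same arrays, so its interaction of the same sign is not independent of that pick. Il1rn and C3 were near background in 2 of the 4 groups or more, where differences are compressed. Forskolin alone did not pass for Hamp (limma adjusted p = 0.0611), Il1rn or Socs1, nor forskolin on top of CHIR for Cxcl16 (limma adjusted p = 0.100) or C3. The call of Hamp on top of CHIR was lost without CHIR replicate 1 or 2 or combined replicate 1 or 2 (0.42 to 0.49). That of C3 with forskolin alone was lost with its brightest probe set (0.33).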

How the results depend on the processing

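The average forskolin effect kept its sign for both genes under every alternative run, and its call without each array in turn. It then ran from -0.49 to -0.35 for Ccl24 (highest limma adjusted p = 0.00799) and from 0.91 to 1.23 for Lbp (highest limma adjusted p = 0.00152). With the brightest probe set Ccl24 gave an average of -0.22 (limma adjusted p = 0.130) and differences of 5.73 for CHIR and 0.38 for forskolin against control, 4.91 for the combination against control, -0.82 against CHIR and 4.53 against forskolin, and 5.35 between the single compounds. The exact permutation test gave p = 0.095 for the Ccl24 average of -0.43 and p = 0.075 for the Lbp average of 1.12. Among single probe sets, number 2 of Ccl24 (-0.22) and numbers 1 (0.37), 3 (0.47), 4 (0.77) and 16 (0.28) of Lbp did not pass. Without each array in turn, Lbp ran from 2.72 to 3.37 for the combination against control, -0.69 to -0.043 against CHIR and 0.22 to 0.86 against forskolin, with an interaction of -3.20 to -2.55. In each case the end furthest from the full value came without replicate 1 of the combined group. Counts of calls moved most with the gene value. With the mean of probe sets, 1631 genes rose with forskolin added to CHIR (1082 with the median), the interaction was higher in 1037 (540) and lower in 833 (510), and of the listed genes 13 fell with forskolin (7), 11 rose with forskolin added to CHIR (6) and 10 had a lower interaction (4). With the brightest probe set, 897 genes fell with forskolin (1483), the interaction was higher in 304 and lower in 326, and 3 listed genes fell with forskolin. With arrays centred, 11 listed genes rose and 2 fell with forskolin added to CHIR (6 and 5), and with dim genes left out 3 fell. Without each array in turn, 979 to 1567 genes and 3 to 9 listed genes fell with forskolin, the lowest counts without forskolin replicate 3 and the highest without replicate 1 of the combined group, and 2 to 6 listed genes fell with forskolin added to CHIR, the lowest without CHIR replicate 1 or without replicate 2 of the combined group. With the brightest probe set the direction turned for Tlr5 (0.22) and Plg (0.069) with forskolin added to CHIR, Plg (-0.12) and Bpifb6 (0.42) with CHIR, and Bpifb6 with forskolin (0.46). Over the 66 values of named genes, 1089 of 1163 alternatives kept direction and call, 60 lost the call, 9 gained one and 5 turned. Same-numbered replicates did not deviate together (r from -0.195 to 0.157, 1 of 18 pairs above 0.1). A replicate block gave averages of -0.43 for Ccl24 (limma adjusted p = 0.00336) and 1.12 for Lbp (limma adjusted p = 0.00104), and of the named calls it ended that of Ccl20 (0.28, limma adjusted p = 0.0522).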

Other observations

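In replicate 1 of the combined group, the genes furthest above the mean of replicates 2 and 3 were Dct (2.39), which encodes an enzyme of melanin synthesis, Igsf11 (1.33), Acss1 (1.27), Cyp11a1 (1.27), the side-chain cleavage enzyme of steroid synthesis, Lbp (1.25) and the actin-bundling gene Lcp1 (1.17). They were named after their values were seen. On the arrays without CHIR, the mean log2 signal with forskolin differed from control by 1.12 for Dct, 0.36 for Igsf11, 0.81 for Acss1, 1.27 for Cyp11a1 and 0.88 for Lcp1, beside 2.51 for Lbp. Over all 16633 genes the deviation of replicate 1 and the forskolin difference had a Pearson r of 0.100, where genes are not independent replicates. Of 159 genes called higher with forskolin alone (limma adjusted p under 0.05) and by at least 1, replicate 1 lay above both mates in 77 and below both in 53. Of 137 genes called lower in the same way and by at least 1, it lay below both in 68 and above both in 38. Over all genes it lay above both in 34.3% and below both in 38.0%.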
